A study of Caenorhabditis elegans with 4 samples.

Results

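The regions described here are the REC-8 ChIP-seq peaks of chromosome II of Caenorhabditis elegans. They were chosen by chromosome name alone: 1069 of the 7834 peaks in the series-wide list lay on chromosome II, or 13.7% of the 7831 nuclear peaks on 15.2% of the nuclear extent. Peaks were placed by their midpoints in the left arm (before position 4879000), the centre (4879000 to 12020000) or the right arm (after 12020000), in the coordinates of WormBase WS220. All samples were whole adult hermaphrodites of the strain fem-2(b245), labelled as young adults that contain a germline; the design text gives a growth temperature of 20 °C. There were 2 REC-8 ChIP samples (replicates 1 and 2, rabbit polyclonal antibody) and 2 input DNA samples, which carried the same allele. Wild-type worms were not analysed here, and somatic and germline chromatin cannot be told apart in whole worms. Chromosome II had 287 peaks in the replicate 1 list and 741 in the replicate 2 list. The files hold no read counts and depth is unknown, so a peak that is missing from a list does not show that REC-8 was absent.

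REC-8 is a meiotic kleisin, the subunit that closes the ring of cohesin and helps to hold sister chromatids together until the meiotic divisions. FEM-2 is a protein phosphatase that promotes male fate, and loss of its function feminises the germline. On C. elegans autosomes the centre recombines little and is rich in essential and widely expressed genes, while the arms carry most crossovers and more repeated sequence. The worm's chromosomes are holocentric, with kinetochores along their length in place of a single centromere.

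The left arm of chromosome II was sparse in REC-8 peaks, while the right arm was nearly as dense as the centre. In the series-wide list the centre held 611 peaks, or 85.6 per Mb (exact Poisson 95% interval 78.9 to 92.6). The right arm held 243 peaks, or 74.9 per Mb (65.8 to 85.0). The left arm held 215, or 44.1 per Mb (38.4 to 50.4). The interval of the left arm lay below those of both other sections, and those of the centre and the right arm overlapped; all such intervals cover counting error only and treat peaks as independent. The centre was 1.94 times and the right arm 1.70 times as dense as the left arm. Peaks covered 3.19% of the centre, 2.99% of the right arm and 1.60% of the left arm.

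The replicate lists gave this contrast to different degrees. Replicate 2 had 62.3 peaks per Mb in the centre (56.7 to 68.4), 49.0 in the right arm (41.7 to 57.3) and 28.1 in the left arm (23.6 to 33.2). In that list the left arm again lay below both other sections. Replicate 1 had 18.9 peaks per Mb in the centre (15.9 to 22.4), 22.8 in the right arm (17.9 to 28.6) and 16.0 in the left arm (12.6 to 20.0). The order of centre and right arm was thus turned round in replicate 1, where the right arm was 1.43 times as dense as the left arm. The 3 intervals of replicate 1 overlapped, which is not a test of the difference between sections.

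**Figure D1:**
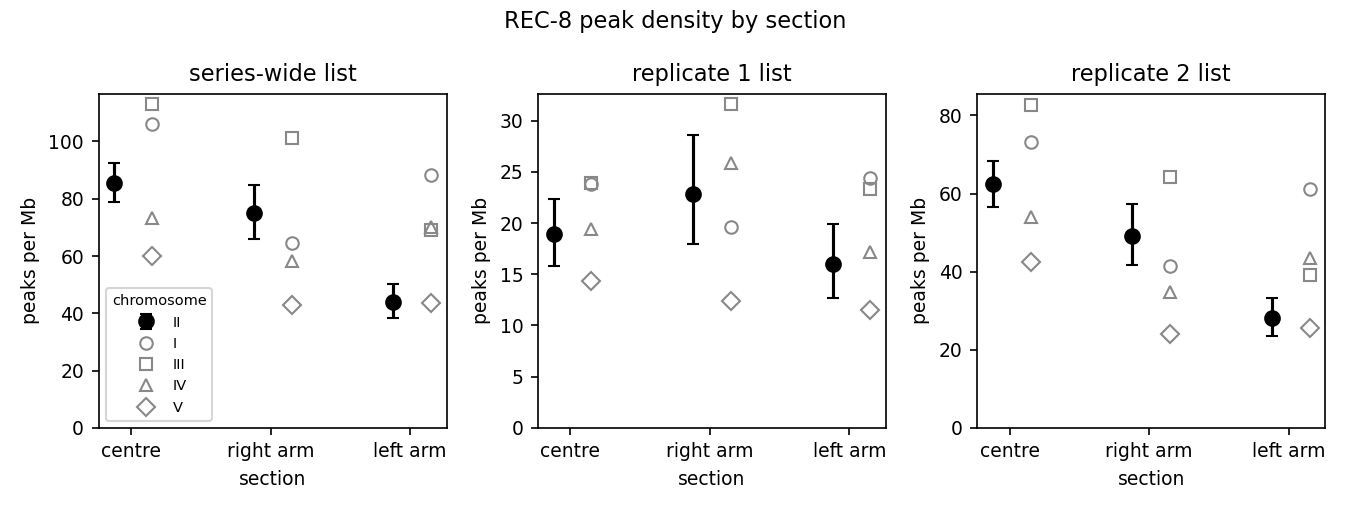
Peaks per Mb in the centre, the right arm and the left arm for chromosome II (black points, bars are exact Poisson 95% intervals) and for chromosomes I, III, IV and V (open symbols, no intervals drawn), 1 panel per peak list with its own scale. The left arm of chromosome II lies at 44.1 peaks per Mb in the series-wide list, close to chromosome V and below chromosomes I, III and IV.

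Chromosome II had the highest right to left arm density ratio of the 5 autosomes in the series-wide list. The log2 ratio of right to left arm density was 0.77 on chromosome II, against -0.46 on I, 0.55 on III, -0.27 on IV and -0.03 on V. The 4 other autosomes averaged -0.05 ± 0.44 (SD, n = 4 chromosomes), which left a difference of 0.82. With chromosomes as units the exact permutation test (two-sided) gave p = 0.2, adjusted p = 0.533 over 8 tests; 0.2 is the smallest p that 5 autosomes allow, so this design cannot reach the threshold of 0.05. Replicate 2 gave 0.80 on chromosome II, 0.87 above the mean of the others (exact p = 0.2). Replicate 1 gave 0.51, 0.31 above the mean of the others, with chromosome IV higher at 0.59 (exact p = 0.6). Chromosomes are not replicates of a condition, and these p-values measure the spread between chromosomes of the same lists.

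The centre of chromosome II was denser than its arms together, as on each of the other autosomes in the series-wide list. The log2 ratio of centre to arms was 0.60 on chromosome II, against 0.20 to 0.48 on the others (mean 0.39 ± 0.13, SD, n = 4; difference 0.21; exact permutation test, p = 0.4; adjusted p = 0.8). It was 0.77 in replicate 2, just above the highest of the others, chromosome V at 0.76. In replicate 1 it was 0.01, where the others ran from -0.20 to 0.27. Over the whole chromosome, II carried 70.0 peaks per Mb, between the 51.8 of chromosome V and the 98.2 of chromosome III (mean of the others 77.2 ± 21.1, SD, n = 4; difference -7.21; exact p = 1; adjusted p = 1). The level of chromosome II as a whole thus lay within the range of the other autosomes, and its left arm, at 44.1 per Mb, was close to that of chromosome V at 43.6. The left arms of chromosomes I, III and IV held 69.0 to 88.4 per Mb.

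Windows of 500 kb showed where along the chromosome the density changed. In the series-wide list the 14 windows wholly inside the centre held 26 to 57 peaks (median 40), the 5 inside the right arm 30 to 48 (median 33) and the 9 inside the left arm 17 to 27 (median 20). Of the 14 centre windows, 13 held more peaks than the fullest of the 9 whole left arm windows, and 5 of the 5 right arm windows did. Of the other windows, the one from 4500001 to 5000000 crossed the left limit of the centre, with 10 peaks in the centre and 25 in the left arm. Those 25 were left out of this comparison and lay in less than 500 kb. Per Mb, this inner end of the left arm was denser than any whole left arm window. It was also denser than the right arm windows with 30 and 31 peaks, near that with 33 and sparser than those with 40 and 48. The density thus rose before the limit was reached. The window from 12000001 to 12500000 crossed the right limit, with 1 peak in the centre and 31 in the right arm. The sparsest windows, with 17 peaks each, ran from 500001 to 1000000 and from 1500001 to 2000000. The densest, with 57 each, ran from 6500001 to 7000000 and from 11500001 to 12000000, which ends near the right limit of the centre. The window from 6000001 to 6500000, beside the first of these, held 26, the fewest of the centre.

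The replicates followed the windows unequally. In replicate 2, 13 of the 14 centre windows held more peaks than any of the 9 left arm windows, and 2 of the 5 right arm windows did. In replicate 1, 1 of 14 centre windows and 1 of 5 right arm windows did. The window from 7500001 to 8000000 held 24 peaks in replicate 2 and 1 in replicate 1, the fewest of any whole window of the chromosome in that list. Conversely, the window from 9500001 to 10000000 held 21 peaks in replicate 1, the most of the chromosome in that list, and 28 in replicate 2. Of these 21, 8 lay within 20 kb, from 9809395 to 9824435, with replicate 1 scores of 52.5 to 104, and 11 of the 21 met no replicate 2 peak. Across the 30 windows Pearson's r was 0.27 and Spearman's rho 0.26 between the replicates, against 0.93 for both between the series-wide list and replicate 2, and 0.37 and 0.30 between the series-wide list and replicate 1. These are descriptions, since windows share their libraries and the series-wide list may hold the replicates' reads.

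**Figure D2:**
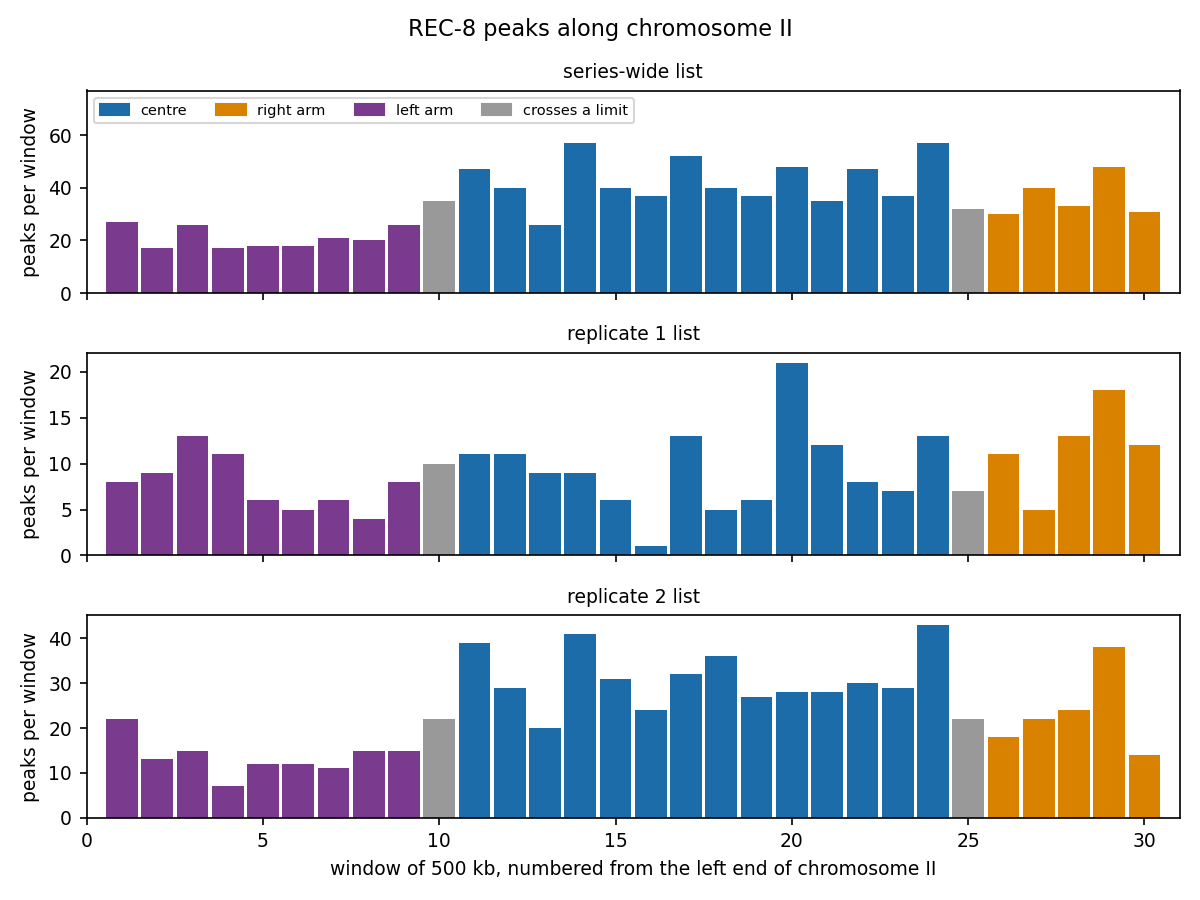
Peaks in each whole window of 500 kb along chromosome II, numbered from the left end, in the series-wide, replicate 1 and replicate 2 lists (each with its own scale), coloured by section, with windows that cross a section limit in grey. In the series-wide list centre windows hold 26 to 57 peaks and left arm windows 17 to 27; in replicate 2 they hold 20 to 43 and 7 to 22, and in replicate 1 they hold 1 to 21 and 4 to 13.

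Spacing follows in large part from density in the same list, and the thinner left arm had wider gaps. In the series-wide list the median distance between midpoints of neighbouring peaks was 4557 bp in the centre (quartiles 1394 and 15294 bp), 5906 bp in the right arm (1729 and 17183 bp) and 9497 bp in the left arm (2143 and 30078 bp). The left arms of the other autosomes had medians of 5156 to 6517 bp, all shorter than that of chromosome II. The longest of these was that of chromosome V, whose density was similar at 43.6 peaks per Mb. The right arm of chromosome I came closer, at 8864.5 bp. Distances over 50 kb numbered 25 of 610 in the centre, 12 of 242 in the right arm and 32 of 214 in the left arm. Counts for the other autosomes are not given here. The longest in each section was 120448 bp in the centre, between peaks at 10662780 to 10662932 and 10783208 to 10783401. In the right arm it was 120274 bp, from the peak at 12339162 to 12339398 on to the one at 12459365 to 12459742. In the left arm it was 153238 bp, from the peak at 1153389 to 1153621 on to the one at 1306638 to 1306847.

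As a log2 ratio of centre to arms, the median distance was -0.64 on chromosome II, against -0.11 ± 0.30 on the others (SD, n = 4; difference -0.53; exact permutation test, p = 0.2; adjusted p = 0.533). The replicate lists did not hold this difference at its size. In replicate 2 the ratio was -0.70 and the difference -0.11 (exact p = 0.6); there the arms of the other autosomes had median distances of 9601 to 15439 bp. In replicate 1 the ratio was 0.55 and the difference 0.23, of opposite sign (exact p = 0.8). Its median distances were 32123 bp in the centre, 19256 bp in the right arm and 29323 bp in the left arm. That left arm value lay within the 19772 to 45979 bp of the other left arms in replicate 1. In replicate 2 the left arm of chromosome II had 16358 bp. The other left arms had 7056.5 to 15409.5 bp there, and the right arm of chromosome V had 15919.5 bp.

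**Figure D3:**
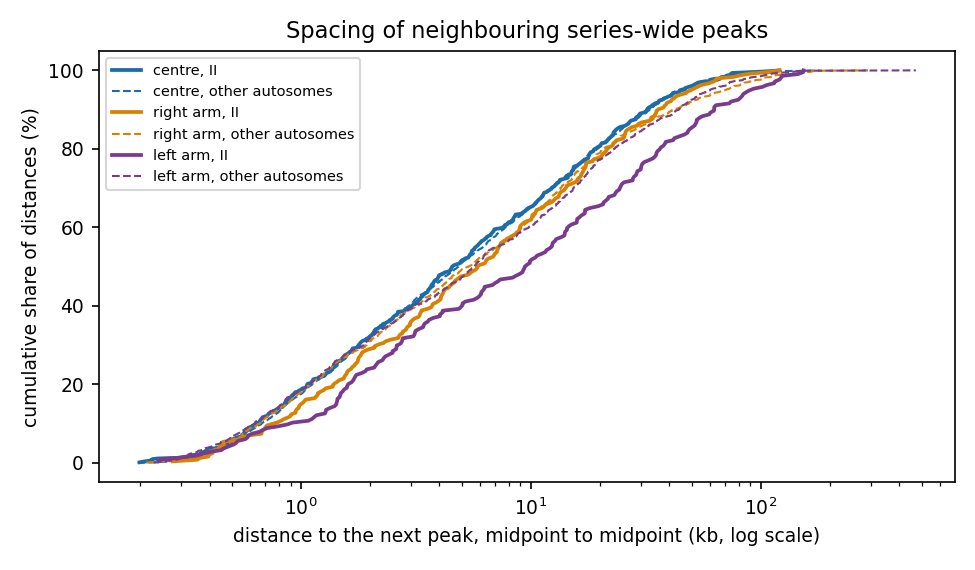
Cumulative share of the distances between midpoints of neighbouring series-wide peaks (log scale, kb) in each section, for chromosome II (solid) and the 4 other autosomes together (dashed). The left arm of chromosome II runs to the right of the other lines over most of the range, with a median of 9497 bp.

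In the series-wide list the share of peaks in close runs was lowest in the left arm as well. When neighbours under 1 kb apart, edge to edge, were joined, 41.4% of the centre's peaks (exact Clopper-Pearson 95% interval 37.5 to 45.4), 37.0% of the right arm's (31.0 to 43.4) and 26.5% of the left arm's (20.7 to 32.9) stood in a run of at least 2. The left arm's interval lay below the centre's and overlapped the right arm's. Peaks enter a run at least 2 at a time, so intervals that treat them as independent are too narrow here. On the other autosomes together the shares were 40.7% in the centre, 41.1% in the right arms and 42.4% in the left arms (39.5 to 45.3), and the interval of their left arms lay above that of chromosome II. The right arm of chromosome I, at 29.2% (23.8 to 35.2), overlapped the left arm of chromosome II. Runs of 5 or more peaks numbered 7 in the centre, 3 in the right arm and 0 in the left arm of chromosome II. They were rare elsewhere too. The other autosomes together had 21 among 2814 centre peaks, 10 among 1058 right arm peaks and 9 among 1128 left arm peaks. The 0 among 215 left arm peaks of chromosome II is too small a count to set it apart. The replicate lists differed in the share of gaps under 1 kb. In replicate 1 it was 13.4% in the centre, 16.4% in the right arm and 19.5% in the left arm, the highest of the 3. In replicate 2 it was 18.5%, 17.1% and 12.5% in that order.

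The run with most members had 9 peaks, at the very start of the right arm, from 12050576 to 12057324. Its scores were low to middling, from 4.69 to 15.5 in a series-wide list whose chromosome II median was 9.31, and 7 of the 9 met a replicate 2 peak while 1 met a replicate 1 peak. A run of 8 in the centre, from 10541932 to 10552358, was longer, with peaks of 535 to 2324 bp; 8 of 8 met replicate 2 and 3 met replicate 1. The widest nuclear peak of the whole replicate 2 list lay over it, from 10541841 to 10549830 (7990 bp), and joined 6 of the series-wide peaks and 2 replicate 1 peaks. A further run of 6, from 10555447 to 10559995, began a few kb beyond. The run of 6 from 14604912 to 14607942 in the right arm met 0 peaks of either replicate and had scores of 2.76 to 6.58. Runs beyond the first were named after their values were seen.

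Peak widths differed little between sections. Median widths in the series-wide list were 290 bp in the centre (quartiles 200 and 445), 306 bp in the right arm (208 and 480) and 271 bp in the left arm (201 and 373), each section's quartiles spanning the other medians. Peaks of at least 800 bp made up 6.22% of the centre (38 peaks, 4.44 to 8.44), 7.82% of the right arm (19 peaks, 4.77 to 11.9) and 5.12% of the left arm (11 peaks, 2.58 to 8.97), against 6.22% of all nuclear peaks. The log2 ratio of centre to arms in median width was 0.01 on chromosome II and 0.01 ± 0.08 on the others (SD, n = 4; exact permutation test, p = 1; adjusted p = 1).

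The replicates diverged here too. Replicate 2 peaks were widest in the centre, with a median of 544 bp against 498 bp in the right arm and 421 bp in the left arm, and 19.3% of the centre's (15.8 to 23.3), 14.5% of the right arm's (9.40 to 20.9) and 6.57% of the left arm's (3.05 to 12.1) reached 800 bp. On the other autosomes together 18.4% of replicate 2 peaks did so in the centres (16.7 to 20.1), 11.5% in the right arms (9.18 to 14.2) and 9.97% in the left arms (7.86 to 12.4), each with an interval that overlapped that of the same section of chromosome II. In replicate 1 such peaks made up 8.15% of the centre (4.14 to 14.1), 9.46% of the right arm (3.89 to 18.5) and 16.7% of the left arm (9.18 to 26.8), with intervals that overlapped.

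Each score was given by the authors' peak caller, MACS for the replicates and MACS v2 for the series-wide list. It was ranked within its list, with 100 as the highest percentile of the nuclear peaks. The median series-wide percentile was 52.7 in the centre, 57.7 in the right arm and 47.9 in the left arm. The highest score decile took 64 peaks of the centre (10.5%, 8.16 to 13.2), 29 of the right arm (11.9%, 8.14 to 16.7) and 17 of the left arm (7.91%, 4.67 to 12.4), against 10.0% of all nuclear peaks by construction. The lowest decile took 12.6% of the centre (10.1 to 15.5), 8.64% of the right arm (5.43 to 12.9) and 9.77% of the left arm (6.15 to 14.5), also against 10.0%. All of these intervals overlapped between sections. The centre minus arms difference in the median percentile was 0.34 on chromosome II and 1.32 ± 4.39 on the others (SD, n = 4; exact permutation test, p = 0.8; adjusted p = 1). In replicate 2 the median percentile was 50.1 in the centre, 61.7 in the right arm and 36.9 in the left arm. In replicate 1 it was 45.9 in the centre, 54.4 in the right arm and 42.6 in the left arm. The right arm thus had the highest and the left arm the lowest median rank in all 3 lists, which may share reads. In the series-wide list other left arms had medians of 43.9 to 54.9 and other right arms 43.4 to 52.7. The highest decile did not follow this order in either replicate. In replicate 1 it took 8.15% of the centre, 6.76% of the right arm and 12.8% of the left arm. In replicate 2 it took 10.6%, 8.81% and 6.57% in that order. The intervals overlapped within each list.

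Of the 62 chromosome II peaks among the 500 highest scoring of the series-wide list, 39 lay in the centre (62.9%, 49.7 to 74.8), 12 in the right arm (19.4%, 10.4 to 31.4) and 11 in the left arm (17.7%, 9.20 to 29.5). These intervals held the sections' shares of all 1069 peaks, which were 57.2% for the centre, 22.7% for the right arm and 20.1% for the left arm. The sites given next were chosen for meeting both replicates. The 5 highest scoring centre peaks that met both replicates had series-wide ranks of 39 to 60. Those of the right arm ranked from 64 to 150 and those of the left arm from 22 to 242. Whether the replicates share the scale of their scores is not stated, so their scores are given side by side without a ratio.

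In the centre the top site ran from 10034538 to 10035107 (570 bp, score 152), with scores of 989 in replicate 1 and 1340 in replicate 2. Another of the 5 lay 552 bp before it, from 10033338 to 10033985 (648 bp, score 136), with 1571 in replicate 1 and 2045 in replicate 2. A second close group held the next sites, from 5346349 to 5346934 (score 149; 1236 in replicate 1 and 1522 in replicate 2) and from 5350172 to 5350828 (score 140; 909 in replicate 1 and 1231 in replicate 2). Between them lay a further peak among the top 500, at 5347137 to 5347586 (score 51.6). The remaining site of these 5 ran from 11967232 to 11968532 (1301 bp, score 132), with 1178 in replicate 1, where 2 peaks met it, and 1934 in replicate 2. Such neighbours were not particular to these sites. Of all gaps between neighbouring centre peaks, 25.4% were under 1 kb. Top 500 peaks of the arms also lay close together. The peaks starting at 15138255 and 15141778 in the right arm were 861 bp apart. Those starting at 4047653 and 4049683 in the left arm were 1379 bp apart.

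In the right arm the top site ran from 14561554 to 14561997 (444 bp, score 128), with 818 in replicate 1 and 1115 in replicate 2. The next ones were at 14992911 to 14993873 (score 100; 1318 in replicate 1 and 578 in replicate 2), 14349387 to 14349899 (score 89.0; 395 and 686) and 14154253 to 14154752 (score 88.7; 443 and 619). The fifth, at 15138255 to 15140916, was also the widest of the arm (2662 bp, score 87.0). It held the highest replicate 1 score of chromosome II, 3100, and 599 in replicate 2, where 3 peaks met it. The score of 3100 recurred in replicate 2, where peaks of the chromosome tied at it. All 5 lay beyond 14 Mb, in the part of the arm nearer to the chromosome's end. Many other peaks of the arm lay there too. Of its 243 peaks, the window from 14000001 to 14500000 held 48 and that from 14500001 to 15000000 held 31. Of the arm's 61 peaks met by both replicates, these windows held 16 and 11. Whether the 5 sites differed from these in position was not tested.

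In the left arm the top site of the whole chromosome ran from 4047653 to 4048303 (651 bp, score 172), with 1215 in replicate 1 and 1749 in replicate 2. It was flanked by 2 more of the top 500, at 4044325 to 4044734 (score 55.0) and 4049683 to 4050082 (score 69.4). The site at 4701106 to 4702037 (score 135) had 1351 in replicate 1 and 2583 in replicate 2, and that at 4684114 to 4684871 (score 72.8) had 783 and 330. The other sites were at 3523549 to 3523919 (score 100; 306 in replicate 1 and 764 in replicate 2) and 255106 to 255560 (score 87.2; 314 and 845). Of these 5 sites, 3 lay beyond 4 Mb, in the part of the arm nearer to the centre. Of the arm's 215 peaks, 26 lay from 4000001 to 4500000 and 25 from 4500001 to the limit of the centre. The difference was not tested.

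The highest scoring sites of each replicate on its own were in part other ones. Of the 10 highest scoring replicate 1 peaks of chromosome II, 3 lay in the centre, 1 in the right arm and 6 in the left arm. All its 287 peaks numbered 135, 74 and 78 in that order. The left arm ones included close neighbours, starting at 1034389 and 1037824 and at 694186 and 697646. Of the 10 of replicate 2, 7 lay in the centre, 1 in the right arm and 2 in the left arm, and all its 741 peaks numbered 445, 159 and 137. These differences were not tested. Overlapping peaks at 4701283 to 4702048, 10033327 to 10034001 and 9201768 to 9203097 of replicate 1 were among the 10 of both replicates. A replicate 1 peak at 1034389 to 1036475 (2087 bp) scored 3008, rank 40 of 2001, while the series-wide peak there scored 16.0 and the replicate 2 peak 1282. The peak at 694186 to 696094 (1909 bp) scored 1920 in replicate 1 and 553 in replicate 2, with a series-wide score of 18.3. Those series-wide scores of 16.0 and 18.3 lay above the chromosome II median of 9.31 in that list. On the other side, the widest series-wide peak of the centre, at 11149466 to 11152117 (2652 bp, score 57.7), scored 3100 in replicate 2 and 365 in replicate 1. The widest of the left arm, at 1150004 to 1153338 (3335 bp, score 19.7), met 3 replicate 1 peaks, the best of which scored 153, and 2 replicate 2 peaks, the best of which scored 1485. A further replicate 2 peak of the centre, at 6346347 to 6349181, also scored 3100 and tied with the one at 11149514 to 11152404. Apart from the widest series-wide peaks, the peaks of this paragraph were named after their values were seen.

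Overlap of at least 1 bp with the replicate lists divided the 1069 peaks into classes. Both replicates met 216 of them (20.2%, 17.8 to 22.7), against 19.1% of all nuclear peaks. Replicate 2 alone met 530 (49.6%, 46.5 to 52.6; 49.3% of all), replicate 1 alone 43 (4.02%, 2.93 to 5.38; 4.71% of all), and neither met 280 (26.2%, 23.6 to 28.9; 26.9% of all). These shares were near those of all nuclear peaks. For the share met by both, the other autosomes averaged 19.7 ± 1.44% (SD, n = 4; difference 0.48 percentage points; exact permutation test, p = 1; adjusted p = 1).

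The classes were not spread evenly over the sections. Peaks met by both replicates made up 18.5% of the centre (113 peaks, 15.5 to 21.8), 25.1% of the right arm (61 peaks, 19.8 to 31.0) and 19.5% of the left arm (42 peaks, 14.5 to 25.5). Replicate 2 alone met 56.8% of the centre (52.8 to 60.8), 39.5% of the right arm (33.3 to 46.0) and 40.5% of the left arm (33.8 to 47.4), so the centre's share lay above those of both arms. Replicate 1 alone met 2.62% of the centre (16 peaks, 1.50 to 4.22), 2.88% of the right arm (7 peaks, 1.17 to 5.84) and 9.30% of the left arm (20 peaks, 5.78 to 14.0), where the interval lay above the centre's but reached that of the right arm. Neither replicate met 22.1% of the centre (18.9 to 25.6), 32.5% of the right arm (26.7 to 38.8) and 30.7% of the left arm (24.6 to 37.3).

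The rise in replicate 2 alone in the centre was seen on the other autosomes together too, with 54.1% in the centre, 39.0% in the right arms and 39.9% in the left arms. Replicate 1 alone met 15.2% of the peaks in the left arm of chromosome III and 10.3% in the right arm of chromosome IV, both above its share in the left arm of chromosome II. The centre minus arms difference in the share met by both was -3.99 percentage points on chromosome II and -2.60 ± 0.55 on the others (SD, n = 4; difference -1.40; exact permutation test, p = 0.2; adjusted p = 0.533). This difference turned positive (0.30) when the outermost 500 kb were left out, and in 3 more of 8 alternatives.

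**Figure D4:**
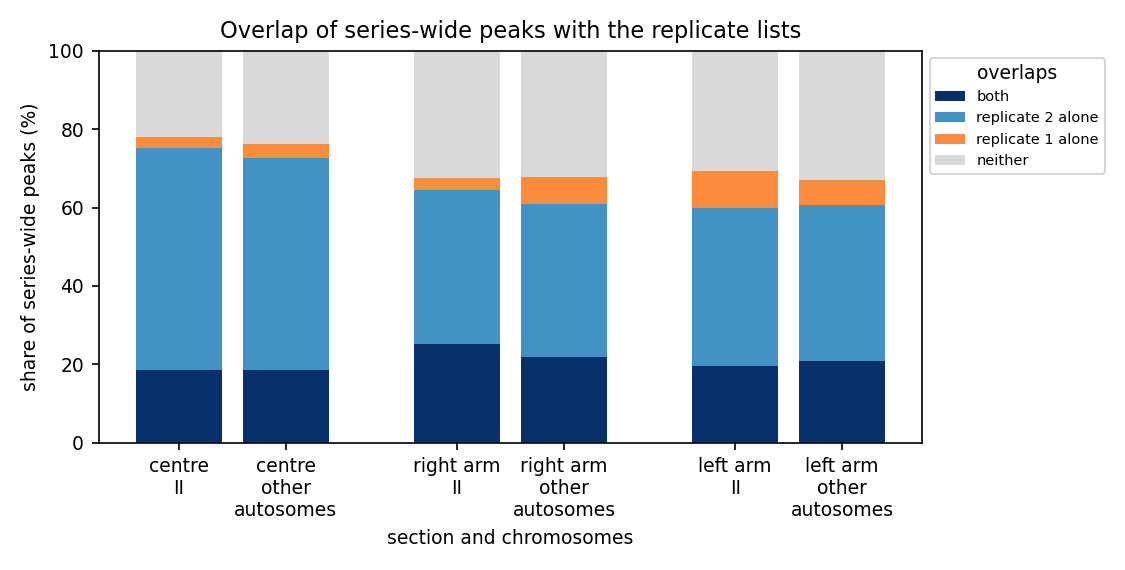
Share of series-wide peaks (in percent) that overlap both replicates, replicate 2 alone, replicate 1 alone or neither, by section, for chromosome II and the 4 other autosomes together. In the centre replicate 2 alone takes 56.8% on chromosome II and 54.1% on the others, and in the left arm replicate 1 alone takes 9.30% on chromosome II and 6.38% on the others.

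In each section the peaks met by both replicates ranked higher and were wider than those met by neither. Peaks met by both replicates had median percentiles of 91.3 in the centre, 88.6 in the right arm and 87.4 in the left arm, and median widths of 512, 543 and 551 bp in that order of sections. Peaks met by neither had median percentiles of 16.1 in the centre, 27.1 in the right arm and 26.1 in the left arm, and median widths of 186, 198 and 201 bp. By quintiles of the series-wide score, both replicates met 0 of 214 chromosome II peaks in the lowest quintile (which allows a share of up to 1.40%), 16.4% of the second highest (11.8 to 21.9) and 73.2% of the highest (67.1 to 78.7). In the highest quintile the share was 73.5% in the centre (65.1 to 80.8), 69.0% in the right arm (56.9 to 79.5) and 80.6% in the left arm (64.0 to 91.8). The strong sites of the sparse left arm were thus met by both replicates at a share whose interval overlapped those of the other sections. If the series-wide scores draw on the reads of both replicates, this order would follow in part from how the list was made.

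The best peaks outside the shared class had lower ranks. The highest scoring met by replicate 2 alone were at 6113015 to 6113473 in the centre (score 46.3), 14410665 to 14411028 in the right arm (44.0) and 4740031 to 4740390 in the left arm (41.9). Those met by replicate 1 alone were weaker, at 9632589 to 9632752 in the centre (8.03), 12845558 to 12845845 in the right arm (6.73) and 4554798 to 4555570 in the left arm (15.5). Those met by neither were at 6847896 to 6848140 in the centre (11.8), 12132969 to 12133207 in the right arm (10.2) and 1131241 to 1131713 in the left arm (13.0). The left arm had the highest score of the last 2 kinds.

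Seen from replicate 1, the left arm was where the replicates parted most. Of its 287 chromosome II peaks, 230 had a replicate 2 partner (80.1%, 75.0 to 84.6), against 78.6% of all nuclear replicate 1 peaks. By section the share was 85.9% in the centre (116 of 135, 78.9 to 91.3), 90.5% in the right arm (67 of 74, 81.5 to 96.1) and 60.3% in the left arm (47 of 78, 48.5 to 71.2). The left arm's interval lay below both others. The right arm's lay above those of the right arms of chromosomes IV and V, at 58.1% (48.6 to 67.2) and 59.3% (45.0 to 72.4), and overlapped those of I and III by less than 1 percentage point. In left arms a low share was seen on chromosome III too, at 59.8% (48.7 to 70.1), while I, IV and V had 86.2%, 85.1% and 76.5%. These differences between chromosomes were not tested.

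**Figure D5:**
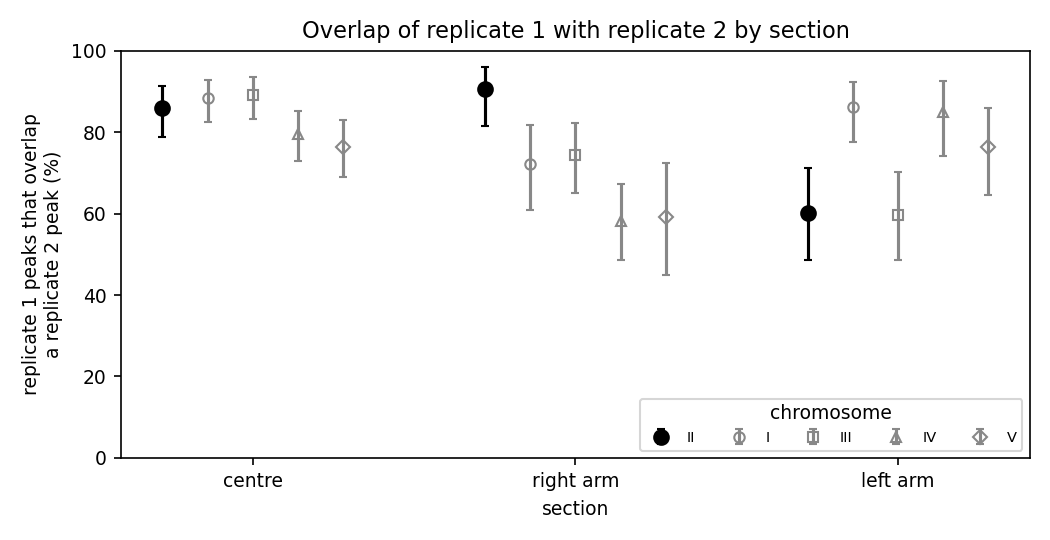
Share of replicate 1 peaks that overlap a replicate 2 peak (in percent, bars are exact Clopper-Pearson 95% intervals) in the centre, the right arm and the left arm of each autosome, chromosome II in black. Chromosome II has 90.5% in its right arm and 60.3% in its left arm, and chromosome III has a left arm value of 59.8%.

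Seen from replicate 2, 222 of its 741 chromosome II peaks had a replicate 1 partner (30.0%, 26.7 to 33.4), against 28.0% of its nuclear peaks as a whole. The share was 24.7% in the centre (20.8 to 29.0), 40.9% in the right arm (33.2 to 48.9) and 34.3% in the left arm (26.4 to 42.9). The right arm's interval lay above the centre's, and the left arm's overlapped both. The series-wide list took up 262 of the 287 replicate 1 peaks (91.3%; 91.5% of all nuclear ones) and 700 of the 741 replicate 2 peaks (94.5%; 94.7% of all).

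The 57 replicate 1 peaks of chromosome II without a replicate 2 partner numbered 19 in the centre, 7 in the right arm and 31 in the left arm. Their median percentile in replicate 1 was 33.0 in the centre, 54.2 in the right arm and 30.3 in the left arm, against 47.8, 54.6 and 64.3 for the peaks with a partner. The strongest of them, named after its values were seen, ran from 8288324 to 8292836 in the centre (4513 bp, replicate 1 score 1267, rank 119 of 2001). It was the widest replicate 1 peak of the chromosome and took up 4 series-wide peaks with scores of 3.49 to 7.28. In the left arm 3 adjacent replicate 1 peaks from 4641173 to 4645192, with scores of 810, 781 and 368, had no replicate 2 partner, and a run of 4 series-wide peaks with scores of 3.35 to 5.84 lay within that stretch. In the right arm 1 replicate 1 peak from 12843668 to 12846160 (2493 bp, score 762) took up another such run of 4, with scores of 2.13 to 6.73. The series-wide scores of this paragraph all lay below the chromosome II median of 9.31 in that list.

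Sites with exactly 1 peak from each replicate in overlap were compared. Overlap itself bounds the distance between midpoints, so a short distance is not a separate sign that the replicates match. There were 198 such sites on chromosome II, with a median distance between midpoints of 46.5 bp in the centre, 41.5 bp in the right arm and 42.5 bp in the left arm. The sections of the other autosomes had medians from 17.25 bp (right arm of V) to 61 bp (centre of III). Median widths at these sites were 406 bp in replicate 1 and 648 bp in replicate 2, and replicate 1 had the wider peak at 27 of 198. Of these 27, 3 lay in the centre (of 99 sites), 11 in the right arm (of 57) and 13 in the left arm (of 42). On the other autosomes the counts were 10 of 266 on I, 7 of 247 on III, 37 of 235 on IV and 30 of 183 on V, and the difference was not tested. Spearman's rho between the replicates' scores over these sites was 0.62 in the centre, 0.21 in the right arm and 0.48 in the left arm. In the sections of the other autosomes rho ran from 0.40 to 0.67, apart from 0.09 in the right arm of chromosome IV. Over whole chromosomes it was 0.42 on II, against 0.65 on I, 0.61 on III, 0.45 on IV and 0.49 on V. These correlations are across sites of the same 2 libraries and are descriptions.

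At the chromosome ends, the outermost 500 kb of chromosome II held 44 series-wide peaks on the right, with 17 in replicate 1 and 30 in replicate 2. The left end held 27 series-wide peaks, with 8 in replicate 1 and 22 in replicate 2. The right end of chromosome III, with 71 series-wide peaks, was the densest autosomal end, and the left end of chromosome V, with 20, the sparsest.

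At the left limit of the centre the last left arm peak ran from 4857127 to 4857484 (score 7.66, replicate 2 alone) and the first centre peak from 4888635 to 4889215 (score 4.37, neither replicate). At the right limit the last centre peak ran from 12006408 to 12006965 (score 67.9, both replicates) and the first right arm peak from 12023475 to 12023841 (score 5.63, neither replicate). No genome or annotation of WS220 was used here, so these sites are given by position, without genes or sequence.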

How the data were processed

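REC-8 ChIP-seq was done on 2 ChIP and 2 input DNA samples. Per the labels' protocols, crosslinking took 20 minutes in EGS and 10 more with formaldehyde added, and 5 µg of antibody was used. The submitters' processing notes name BWA and ce10; coordinates are in WormBase WS220 per the file headers. The authors deposited 3 peak lists with the score of each peak, called by MACS (replicates) and MACS v2 (series-wide), per the source column. Not given in the sources used here are the score's meaning, how replicates were combined, whether the input was used and how repeated reads were handled; any of these can move peaks. Depth is unknown.

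Computed from these, in Python 3.11.15 (pandas 2.3.3, NumPy 2.4.6, SciPy 1.17.1; plots with matplotlib 3.10.9): sections by midpoint, using published recombination domain limits of the same set for each autosome (those of chromosomes I, III, IV and V were entered from general knowledge of that set and not checked against it); extents to the last deposited peak base; overlaps of at least 1 bp; and exact permutation tests of chromosome II against the 4 other autosomes, Benjamini-Hochberg adjusted over 8 tests. Chromosome X and 3 mitochondrial peaks stayed out of the tests. Procedures were tested on simulated lists. The named peaks are, per section, the 5 highest scoring met by both replicates, the highest scoring of each other overlap class, the widest, and those beside the longest gap; further, the extreme windows and the largest run. The regions, sections, tests and lists were chosen with earlier results of these data known. The labels do not say whether replicates came from separate cultures.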

Additional observations from a re-analysis of the deposited data

How the results depend on the processing

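Unknown depth limits each statement on missing peaks, most of all in replicate 1. Of 55 alternative values, 40 kept the direction of the difference between chromosome II and the mean of the other autosomes and 15 reversed it; no p fell below 0.2, which the design cannot pass. Whole-chromosome density (6 alternatives), the centre to arms density ratio (8) and the right to left arm density ratio (8) kept their direction in each alternative tried. With 1 replicate list in place of the series-wide list (for shares, 1 replicate in place of both), the differences ran from -3.53 to -1.75 peaks per Mb for density, 0.0085 to 0.16 for the centre to arms ratio, 0.31 to 0.87 for the right to left ratio, -0.19 to 0.088 for the width ratio, -8.28 to 0.69 for the rank, -0.11 to 0.23 for the spacing ratio, -1.60 to 0.66 percentage points for the centre minus arms share and -0.45 to 2.45 for the share of all peaks. The positive rank and centre minus arms values came without replicate 1. The negative width and share values and the positive spacing value came without replicate 2. Further differences from the other autosomes reversed as follows. For all reversals the cause was not tested. With peaks met by both replicates, the width ratio was -0.26, the rank difference 2.94 and the spacing ratio 0.096. With sections of equal length the width ratio was -0.12. The centre minus arms share was 1.02 for peaks at or above the median score, 0.30 without the outermost 500 kb and 2.17 with lists of equal length. The share of all peaks met by both was -1.24 at or above the median score, -0.49 with a reciprocal overlap of 50% and -0.46 with midpoints within 500 bp. No paired analysis was possible because no peak list of the input DNA was analysed here.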
